A study of Mus musculus with 12 samples.

Results

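The collagen genes of the mouse were followed through 12 RNA libraries from animals treated with the liver toxin carbon tetrachloride (CCl4) or with vehicle. A gene was a member if its identifier mapped to a symbol of the form Col, a number, a and a number. The rule found 44 genes of 27 collagen types among the 57180 genes of the expression table. They comprised 11 fibrillar collagens, 8 basement membrane collagens (6 type IV chains and the multiplexins Col15a1 and Col18a1) and 25 others.

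Collagens are secreted proteins whose chains wind into a triple helix. The fibrillar types I, III and V assemble into the cables that give scar, skin and tendon their strength, and in liver injury they are known as products of activated stellate cells. Type IV forms the sheet under epithelia and around vessels, and the multiplexins XV and XVIII lie in or next to that sheet. Type VI makes beaded filaments, and types XII, XIV and XVI are fibril-associated collagens. Types XIII, XVII and XXIII span the cell membrane, and type VII anchors the epidermis to the dermis.

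The liver libraries were bulk RNA-seq of C57 mice, 3 given CCl4 and 3 given vehicle. The sample labels call the source liver, whereas the series' design text speaks of collected hepatocytes. The skin libraries were smart-seq of CX3CR1+ cells from dorsal skin of Cx3cr1-creER:Ai9 mice, 3 given CCl4 and 3 given vehicle, in which a tamoxifen-inducible Cre driven from the Cx3cr1 locus switches on a red reporter. The sources used here give no dose, number of injections, sampling time, age or tamoxifen schedule. The design text calls the replicates biological. Tissue, assay and strain change together, so a difference between liver and skin cannot be assigned to any of them. Libraries are named here by tissue, treatment and the replicate number of the title.

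All values are in TPM, a transcript level scaled for gene length and library total, so levels of different genes within a library can be compared. No read counts were used, so depth is unknown and no counting interval is given. Changes are differences of mean log2(TPM + 1), CCl4 minus vehicle, with their standard error (SE). They were tested with limma on all genes that reached 1 TPM in at least 3 of the 6 libraries of a tissue. A gene was called where its p, adjusted by Benjamini-Hochberg over all genes tested, was under 0.05. The added 1 TPM understates changes of low genes.

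Some features of the libraries touch every value below. In liver, mitochondrial genes and 11 near-identical nuclear copies of them took 25.7 to 28.4% of TPM with vehicle and 68.1 to 82.1% with CCl4, which leaves less of the total for every other gene. The median change of all 10385 liver genes tested was -0.59 as deposited. It was -0.11 after median-ratio scaling, -0.15 after quantile normalization and 0.85 after rescaling without mitochondrial RNA. In skin the mitochondrial share was 0.843 to 4.66%. The skin library CCl4 3 stood apart: its 10 macrophage and monocyte markers summed to 299 TPM against 6052 to 17257 TPM in the other 5 libraries, and Cx3cr1 itself was between 0 and 5.28 TPM in all 6 skin libraries. Among the skin libraries, both numbered 1 held 28357 and 28870 genes above 0, the other 4 between 21328 and 23494.

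CCl4 livers carried far more RNA of the scar-forming collagens. Of the 14 members tested in liver, 10 rose (Col1a1, Col1a2, Col3a1, Col5a1, Col4a1, Col4a2, Col6a1, Col6a3, Col13a1 and Col14a1), 3 fell (Col5a3, Col27a1 and Col18a1) and Col15a1 was not called. Over all genes tested, 10.3% were called higher and 51.1% lower. The median change was 1.75 for the members tested and -0.59 for all genes. In 10 of the 14 members every CCl4 library lay above every vehicle library and in 3 every one lay below, while 11.4% and 58.8% of all genes tested did so. These members passed a filter that a gene can pass through its CCl4 libraries alone, so their counts are a description.

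Promoter sequence is shown for 2 fibrillar genes that rose and for the member that fell most. RefSeq windows on GRCm38.p6 were found for 35 of the 44 genes, 38 windows in all, and each sequence below is the 250 bases before the annotated start, 5′ to 3′ on the strand of the gene. Capitals mark the motif CCAAT, the TATA box motif TATAAA and the GC box motif GGGCGG, or their reverse complements, searched on both strands with no overlap between motifs here. The Col3a1 window lies at chr1:45311288-45311537 on the plus strand, that of Col1a2 at chr6:4505368-4505617 on the plus strand, and those of the upstream and downstream starts of Col18a1 at chr10:77166531-77166780 and chr10:77113706-77113955 on the minus strand.
Col3a1: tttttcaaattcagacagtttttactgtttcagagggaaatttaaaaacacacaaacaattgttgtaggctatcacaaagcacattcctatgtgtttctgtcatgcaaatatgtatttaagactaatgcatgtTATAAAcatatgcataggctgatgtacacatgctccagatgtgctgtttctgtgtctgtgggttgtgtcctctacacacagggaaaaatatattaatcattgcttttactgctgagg
Col1a2: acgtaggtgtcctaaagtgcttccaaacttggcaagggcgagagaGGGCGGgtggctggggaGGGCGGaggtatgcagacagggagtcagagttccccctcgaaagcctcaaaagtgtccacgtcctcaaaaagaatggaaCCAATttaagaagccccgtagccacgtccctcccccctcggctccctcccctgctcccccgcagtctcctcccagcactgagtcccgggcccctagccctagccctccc
Col18a1, upstream start: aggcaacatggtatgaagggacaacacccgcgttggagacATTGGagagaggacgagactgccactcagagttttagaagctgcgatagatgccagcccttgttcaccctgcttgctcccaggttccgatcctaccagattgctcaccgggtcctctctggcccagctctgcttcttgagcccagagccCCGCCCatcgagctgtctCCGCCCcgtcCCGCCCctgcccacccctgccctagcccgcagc
Col18a1, downstream start: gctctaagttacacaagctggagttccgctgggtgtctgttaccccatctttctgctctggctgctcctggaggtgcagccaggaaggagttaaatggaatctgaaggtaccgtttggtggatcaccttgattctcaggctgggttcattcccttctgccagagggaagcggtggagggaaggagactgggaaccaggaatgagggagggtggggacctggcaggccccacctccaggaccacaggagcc

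The Col3a1 window held TATAAA, whose first base was at -117 from the start, and neither of the other motifs. That of Col1a2 held GGGCGG at -205 and -188 and CCAAT at -109. The upstream window of Col18a1 held the reverse complement of CCAAT at -210 and that of GGGCGG at -61, -43 and -33, and its downstream window held none of the 3. CCAAT was in 34.2% of collagen windows and 33.8% of 32851 windows of all genes, TATAAA in 13.2% and 12.4%, and GGGCGG in 57.9% and 32.7%. Letters that match are a description and not a binding site. No measurement of binding or chromatin was used here.

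By mean TPM, type III and type I RNA went from near nothing to the leading group among the fibrillar collagens. In CCl4 library 3, Col1a1 was below Col5a3, Col5a1 and Col27a1. Col3a1, the chain of reticular type III fibrils, was at 0.40, 0.56 and 0.46 TPM with vehicle and 14.1, 25.5 and 9.99 TPM with CCl4. The lowest CCl4 library was thus far above the highest vehicle library, and the log2 difference was 3.48 ± 0.29 (SE, n = 3 per group; limma adjusted p = 1.3e-05). Col1a2, the minor chain of type I collagen, had 0.10, 0.27 and 0.19 TPM with vehicle and 5.31, 8.93 and 2.74 TPM with CCl4. The groups were apart again, by 2.38 ± 0.29 (adjusted p = 0.000141). Col1a1, the major chain of the same molecule, was listed at 0, 0.03 and 0.03 TPM in vehicle livers and reached 2.47, 4.65 and 1.32 TPM with CCl4, a difference of 1.81 ± 0.27 (adjusted p = 0.000394). Col5a1, whose product sets the diameter of type I fibrils, differed by 1.52 ± 0.17 (adjusted p = 8.5e-05). In each of these 4 genes CCl4 library 2 was the highest. All 4 genes were under 1 TPM in every vehicle library, so they could pass the filter only with all 3 CCl4 libraries at 1 TPM or more. That their CCl4 libraries lay wholly above the vehicle libraries was thus set by the filter.

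2 fibrillar members moved the other way. Col5a3, a further type V chain, was at 4.27, 5.32 and 4.80 TPM with vehicle and 1.19, 2.90 and 2.19 TPM with CCl4, a log2 difference of -0.94 ± 0.23 (adjusted p = 0.00509). Col27a1, a fibrillar collagen known from cartilage, was at 4.35, 3.47 and 3.57 TPM with vehicle and 1.39, 2.28 and 1.45 TPM with CCl4, a difference of -0.84 ± 0.20 (adjusted p = 0.00419). Neither pair of groups overlapped in TPM as deposited. These were the top 2 fibrillar genes of vehicle liver, and with CCl4 both ranked below Col3a1, Col1a2 and Col1a1 by mean TPM. Their direction depended on the scaling: without mitochondrial RNA, Col5a3 was at 0.38 (adjusted p = 0.270) and Col27a1 at 0.46 (adjusted p = 0.204), and after median-ratio scaling neither was called (adjusted p = 0.0875 and 0.146).

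**Figure D1:**
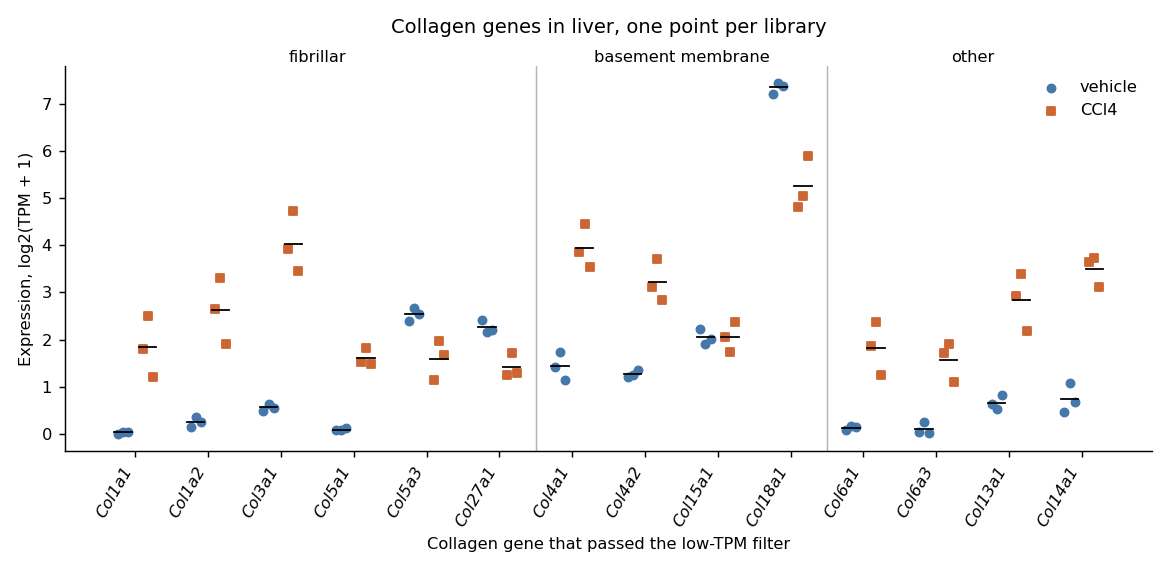
Expression of the 14 collagen genes tested in liver, as log2(TPM + 1), with genes on the horizontal axis grouped by class, 1 point per library (circles vehicle, squares CCl4) and a black bar at each group mean. Col3a1 goes from 0.40 to 0.56 TPM with vehicle to 9.99 to 25.5 TPM with CCl4, Col18a1 goes down, and the groups of Col15a1 overlap.

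The basement membrane class moved in 2 directions. Col4a1 and Col4a2 encode the α1 and α2 chains of the common type IV molecule. Col4a1 was at 1.66, 2.31 and 1.22 TPM with vehicle and 13.6, 20.9 and 10.6 TPM with CCl4, a log2 difference of 2.52 ± 0.27 (adjusted p = 6.4e-05). Col4a2 was at 1.29, 1.36 and 1.55 TPM with vehicle and 7.64, 12.1 and 6.16 TPM with CCl4, a difference of 1.96 ± 0.24 (adjusted p = 0.000126). Both genes rose, with no overlap between groups, and their order over the 3 CCl4 libraries was the same. The other 4 type IV chains, Col4a3 to Col4a6, were under 1 TPM in every liver library.

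Col4a1 and Col4a2 are transcribed head to head. In RefSeq on GRCm38.p6 their annotated starts lie 22 bases apart counting both ends, at chr8:11312805-11312826, so that the 2 transcripts overlap there. The bases between the starts, on the plus strand with a GC box in capitals, are shown because the 2 genes share them:
Col4a1 and Col4a2, shared start: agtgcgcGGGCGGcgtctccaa

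The ratio of Col4a1 to Col4a2 TPM was 1.29, 1.70 and 0.787 in vehicle livers and 1.78, 1.73 and 1.72 in CCl4 livers, a mean of 1.74 ± 0.0311 (SD, n = 3) with CCl4. The CCl4 ratios lay close together and above those of the vehicle livers, where both genes were between 1.22 and 2.31 TPM.

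Col18a1, the type XVIII collagen whose C-terminal fragment is endostatin and which hepatocytes are known to make, was by far the most abundant collagen of vehicle liver. It was at 148, 173 and 167 TPM with vehicle and 26.9, 32.3 and 58.9 TPM with CCl4. It fell by 2.10 ± 0.34 on the log2 scale (adjusted p = 0.000579), with no overlap between groups. The size of the fall depended on the scaling: it was -1.49 after median-ratio scaling, -0.83 after quantile normalization and -0.42 without mitochondrial RNA (adjusted p = 0.00206, 0.00720 and 0.0245). Set against albumin (Alb) in the same library, which no scaling of the total can move, Col18a1 was at 3.69, 3.79 and 3.84 TPM per 1000 TPM of Alb with vehicle and at 3.03, 2.98 and 2.72 with CCl4. This ratio was chosen after its values were seen. Every CCl4 ratio was below every vehicle ratio. Col15a1, the multiplexin of vessel walls, was at 3.67, 2.73 and 3.02 TPM with vehicle and 3.12, 2.34 and 4.15 TPM with CCl4. Its groups overlapped, with a difference of 0.01 ± 0.21 (adjusted p = 0.982). Without mitochondrial RNA it was called higher, at 1.504 (adjusted p = 0.000969).

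Of the 25 other collagens, 4 could be tested in liver, and all 4 rose, against 10.3% of all genes called higher. For Col6a1, Col6a3 and Col13a1, under 1 TPM in every vehicle library, this direction was set by the filter. They could pass it only with all 3 CCl4 libraries at 1 TPM or more. Col14a1, a collagen on the surface of type I fibrils, was at 0.37, 1.11 and 0.59 TPM with vehicle and 11.4, 12.2 and 7.66 TPM with CCl4, a log2 difference of 2.76 ± 0.24 (adjusted p = 1.8e-05). Col13a1, a membrane-spanning collagen of cell adhesions, was at 0.55, 0.43 and 0.76 TPM with vehicle and 6.64, 9.48 and 3.56 TPM with CCl4, a difference of 2.18 ± 0.27 (adjusted p = 0.000149). Both sets of groups were apart. The type VI chains form 1 molecule. Col6a1 was at 0.05, 0.12 and 0.10 TPM with vehicle and 2.63, 4.17 and 1.36 TPM with CCl4, a difference of 1.70 ± 0.25 (adjusted p = 0.000369). Col6a3 was at 0.02, 0.18 and 0.01 TPM with vehicle and 2.26, 2.75 and 1.14 TPM with CCl4, a difference of 1.48 ± 0.22 (adjusted p = 0.000372). The vehicle libraries were near 0 for both chains and the CCl4 libraries above 1 TPM.

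The remaining 30 members missed the filter in liver. 6 of them were listed at 0 in all 6 libraries (Col2a1, Col6a4, Col9a1, Col11a1, Col19a1 and Col28a1), and 26 of the 30 stayed below 1 TPM throughout. The 4 that reached 1 TPM did so with CCl4: Col5a2, the partner chain of Col5a1, was at 1.68, 2.88 and 0.89 TPM, Col6a2 at 1.56, 2.81 and 0.73, Col16a1 at 0.94, 1.61 and 0.83 and Col6a5 at 0.45, 1.6 and 0.07. With vehicle none of the 4 passed 0.08 TPM. With no filter, 38 members above 0 were tested, of which 17 were called higher and 3 lower, against 8.03% and 18.1% of 24989 genes. The added calls were Col5a2 at 1.37, Col6a2 at 1.29, Col16a1 at 1.02, Col11a2 at 0.41, Col24a1 at 0.13, Col8a1 at 0.08 and Col6a6 at 0.08.

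The 10 rises were called under each of 3 other scalings. With median-ratio scaling 10 members were higher and Col18a1 alone lower, against 17.7% and 26.2% of all genes. With quantile normalization 10 were higher and 3 lower, against 17.1% and 24.8%. Without mitochondrial RNA 11 were higher, Col15a1 being added, and Col18a1 was lower, against 66.8% and 4.20%, and Col3a1 reached 5.40. Leaving out any 1 liver library ended none of the 13 calls. In 1 fit over all 12 libraries, where the wider spread of the skin libraries enters the error, only Col13a1 and Col14a1 were called (adjusted p = 0.0237 and 0.00181), and the other 11 calls were lost at adjusted p of 0.0564 or more.

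**Figure D2:**
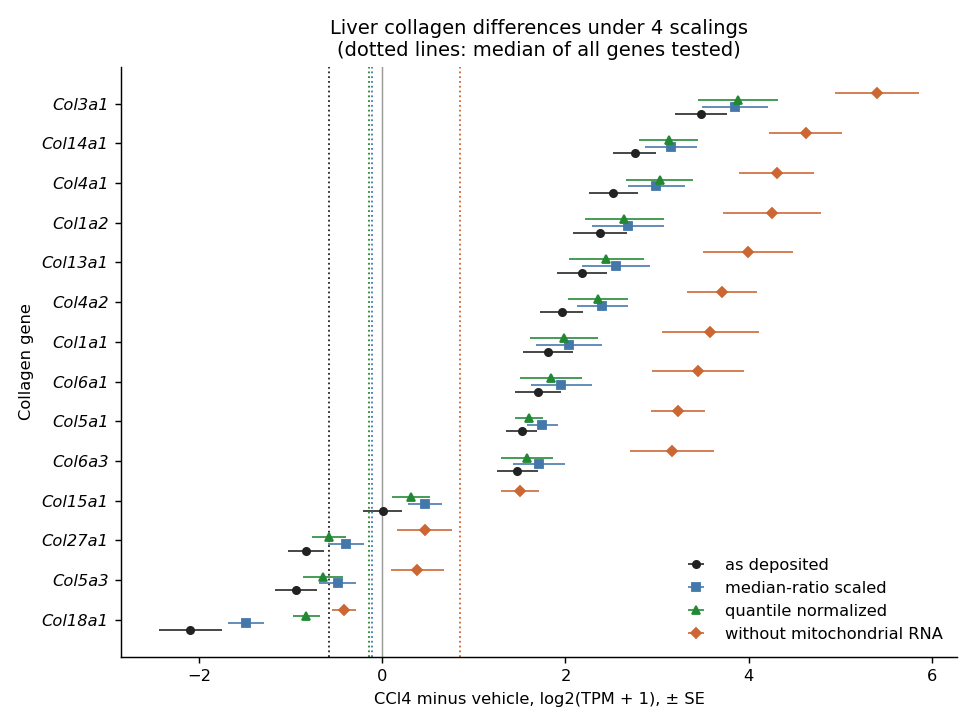
Change of each collagen gene tested in liver (horizontal axis, CCl4 minus vehicle in log2(TPM + 1), bars ± SE) under 4 scalings of the libraries, with the median of all genes tested under each as a dotted line of the same colour. The 10 genes from Col3a1 to Col6a3 lie to the right of 0 under all 4, Col18a1 to the left, and Col5a3 and Col27a1 cross 0.

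The make-up of the collagen RNA does not depend on how a library total is scaled. In vehicle liver, basement membrane collagens held 93.7 ± 0.257% (SD, n = 3) of summed collagen TPM, fibrillar collagens 5.23 ± 0.277% and the others 1.11 ± 0.130%. In CCl4 liver these shares were 53.8 ± 13.1%, 25.6 ± 7.52% and 20.6 ± 5.99%. The fibrillar share was 26.8, 32.5 and 17.6% in the 3 CCl4 libraries, each above the 5.05 to 5.55% of the vehicle libraries. Col18a1 alone was 89.2 to 90.5% of collagen TPM with vehicle, and 25.2, 20.8 and 50.3% with CCl4. Shares are compositional, so part of each gain in share is the fall of Col18a1. Summed over all 44 genes, collagen was at 180.7 ± 13.1 TPM with vehicle and 126 ± 25.4 TPM with CCl4 as deposited, 143.9 and 155.9 after median-ratio scaling, and 246 and 583 without mitochondrial RNA. The direction of the summed level thus turned with the scaling. No test was made of sums or shares.

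**Figure D3:**
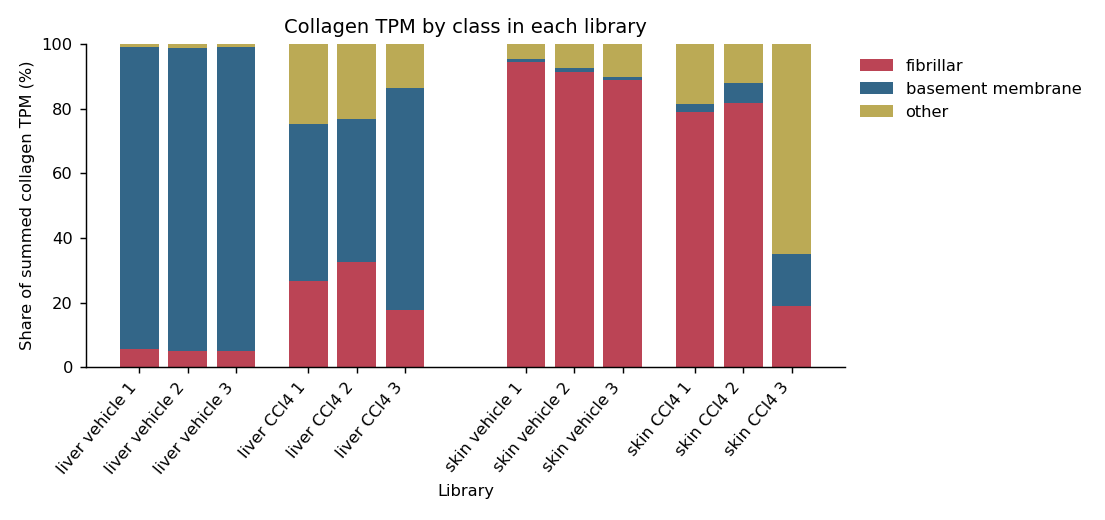
Share of summed collagen TPM (vertical axis, %) held by fibrillar, basement membrane and other collagens in each of the 12 libraries, 1 stacked bar per library. Basement membrane collagens fill 93.4 to 93.9% of the vehicle liver bars and 44.2 to 68.7% of the CCl4 liver bars, and fibrillar collagens fill all skin bars but that of CCl4 3 to at least 79.0%.

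Ratios within a library are free of its scaling. Between the chains of type I collagen, Col1a1 to Col1a2, the ratio was 0.465, 0.521 and 0.482 in the CCl4 livers. Between types III and I, Col3a1 to Col1a1, it was 5.72, 5.49 and 7.57. The type I protein holds more α1 than α2 chains, whereas in TPM Col1a2 was above Col1a1 in each CCl4 liver. In vehicle liver the denominators were under 1 TPM and no ratio was taken.

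The machinery around the collagens was read from lists of pathway genes. Of 34 genes of collagen synthesis and processing, 18 were tested in liver: 5 rose and 8 fell, with a median change of -0.25. Those that rose included Serpinh1, the collagen chaperone HSP47, at 2.85 ± 0.33, Pcolce, an enhancer of procollagen cleavage, at 1.93 ± 0.23, the cross-linking enzyme Loxl2 at 1.75 ± 0.21 and Crtap, of the prolyl 3-hydroxylase complex, at 1.61 ± 0.27 (adjusted p from 0.000104 to 0.000671). Of the 18, 4 were lower with median-ratio scaling, 2 with quantile normalization and none without mitochondrial RNA, where 14 were higher. Over all genes, 26.2, 24.8 and 4.20% were lower under these scalings, and 66.8% were higher without mitochondrial RNA.

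Partners of collagen fibrils moved with the fibrillar genes. Of 17 listed, 8 were tested, 7 rose and Fn1, the fibronectin that hepatocytes also secrete into plasma, fell at -0.90. Sparc, a collagen-binding matricellular protein, changed by 3.84 ± 0.39, and Dcn, the fibril-coating proteoglycan decorin, by 3.60 ± 0.33. Thbs1 and Prelp changed by 2.44 ± 0.20 and 2.40 ± 0.20. The median of the 8 was 2.42, and without mitochondrial RNA all 8 were higher, against 66.8% of all genes. Of 15 other basement membrane components, 8 were tested and 6 rose, with a median of 1.35. Nid1, which links type IV collagen to laminin, changed by 2.47 ± 0.22, and Pxdn, the peroxidase that cross-links type IV collagen, by 2.02 ± 0.23. The laminin chains Lamc1 and Lamb1 changed by 1.25 ± 0.19 and 1.15 ± 0.18.

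Of 14 collagen receptors, 6 were tested and 5 rose, with a median of 1.59. They included Mrc1, a mannose receptor that also binds collagen, at 2.66 ± 0.35, Cd36 at 2.46 ± 0.36, Cd44 at 2.40 ± 0.31 and the collagen-binding integrin chain Itga1 at 0.77 ± 0.19. Of 23 genes of TGF-beta and PDGF signalling, which drives collagen transcription in stellate cells, 14 were tested, 7 rose and none fell, with a median of 0.33. Ltbp4, which binds latent TGF-beta, changed by 2.36 ± 0.29, the ligand Tgfb1 by 2.31 ± 0.28 and the co-receptor Tgfbr3 by 1.51 ± 0.21. Over all liver genes 10.3% were higher and 51.1% lower. As with the collagens, genes such as Thbs1 and Loxl2, near 0 with vehicle, passed the filter through their CCl4 libraries alone, so these counts and medians are a description.

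Markers of several cell types moved with the liver collagens. The 12 markers of stellate cells and myofibroblasts summed to 8.59 to 14.9 TPM with vehicle and 69.4 to 145.5 TPM with CCl4, and all 7 that were tested rose. The 8 endothelial markers summed to 23.4 to 26.6 TPM and 129.8 to 411.7 TPM, and all 8 rose. The 10 macrophage and monocyte markers summed to 27.8 to 32.9 TPM and 90.7 to 366.5 TPM, and 4 of the 5 tested rose. The 6 hepatocyte markers in the table summed to 59470 to 66385 TPM and 12026 to 28820 TPM, and all 6 fell. As deposited, 10.3% of all genes tested were called higher and 51.1% lower. Lrat, Tagln and Bmp5 of the stellate list and Tek of the endothelial list were under 1 TPM in every vehicle library. They passed the filter through their CCl4 libraries alone, so their direction was set by it. Without mitochondrial RNA 2 of the 6 hepatocyte markers were called lower, against 4.20% of all genes. No gene of these 4 lists was at 0 in all liver libraries. The CCl4 library with the most hepatocyte marker RNA, number 3, also had the most Col18a1 and the least Col3a1. Per 100 TPM of stellate and myofibroblast markers, the summed type I and III chains were at 5.82, 5.98 and 4.55 TPM with vehicle and 18.6, 26.9 and 20.2 TPM with CCl4, a ratio chosen after its values were seen. Its vehicle values rest on chains at 0 to 0.56 TPM each, near the floor. Ecm1 was the largest part of the marker sum in each liver library, at 3.91 to 9.23 TPM with vehicle and 29.5 to 67.6 TPM with CCl4. Whether the marker shifts account for the collagen changes was not tested. In bulk RNA, more cells of a type and more RNA per cell cannot be told apart.

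In CX3CR1+ skin cells no collagen difference between CCl4 and vehicle was called. Col3a1, Col1a2 and Col1a1 were the 3 leading collagens of each vehicle library and of CCl4 2, whereas Col27a1 led in CCl4 1 with 24.7% of collagen TPM and Col7a1 in CCl4 3 with 21.7%. Of 20 members tested, none was called (limma, with Col1a1 and Col3a1 at an unadjusted p under 0.05), and of all 13767 genes tested 0% were called higher and 0% lower, with 288 at an unadjusted p under 0.05. In none of the 44 members were the groups apart, against 2.56% of genes tested with every CCl4 library above and 2.72% with every one below. CX3CR1+ cells of skin include macrophages, whereas dermal fibroblasts are the known makers of fibrillar collagen, so the collagen values below are given beside fibroblast markers.

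Col3a1 was at 683, 1643 and 284 TPM with vehicle and 52.4, 675 and 4.15 TPM with CCl4. Col1a2 was at 305, 913 and 118 TPM with vehicle and 54.8, 332 and 5.62 TPM with CCl4. Col1a1 was at 161, 515 and 33.4 TPM with vehicle and 22.3, 66.3 and 3.46 TPM with CCl4. In all 3 genes the CCl4 libraries ranged over more than a factor of 10, and library CCl4 2 overlapped the vehicle group. The differences were -3.58 ± 1.496 for Col3a1, -2.69 ± 1.31 for Col1a2 and -2.89 ± 1.18 for Col1a1 (limma adjusted p = 1.00 for each). Without library CCl4 3 they were -1.85 ± 1.14, -1.24 ± 1.04 and -1.84 ± 1.12, nearer 0 in each gene. Without library CCl4 2 they were -5.37 ± 1.10, -4.07 ± 1.12 and -3.80 ± 1.20. Leaving out any 1 of the 6 libraries gave -5.37 to -1.85 for Col3a1, -4.07 to -1.24 for Col1a2 and -3.92 to -1.84 for Col1a1, the last range ending at -3.92 without vehicle 3, and without vehicle 2 Col1a1 was at -1.96.

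The other fibrillar members tested in skin, Col5a1, Col5a2, Col5a3 and Col27a1, differed by -0.34, -0.58, -0.67 and -1.20. Col27a1 was at 39.3, 12.5 and 20.4 TPM with vehicle and 60.5, 9.09 and 0.54 TPM with CCl4, so the CCl4 group held both its highest and its lowest value. Without library CCl4 3 its difference was 0.14.

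**Figure D4:**
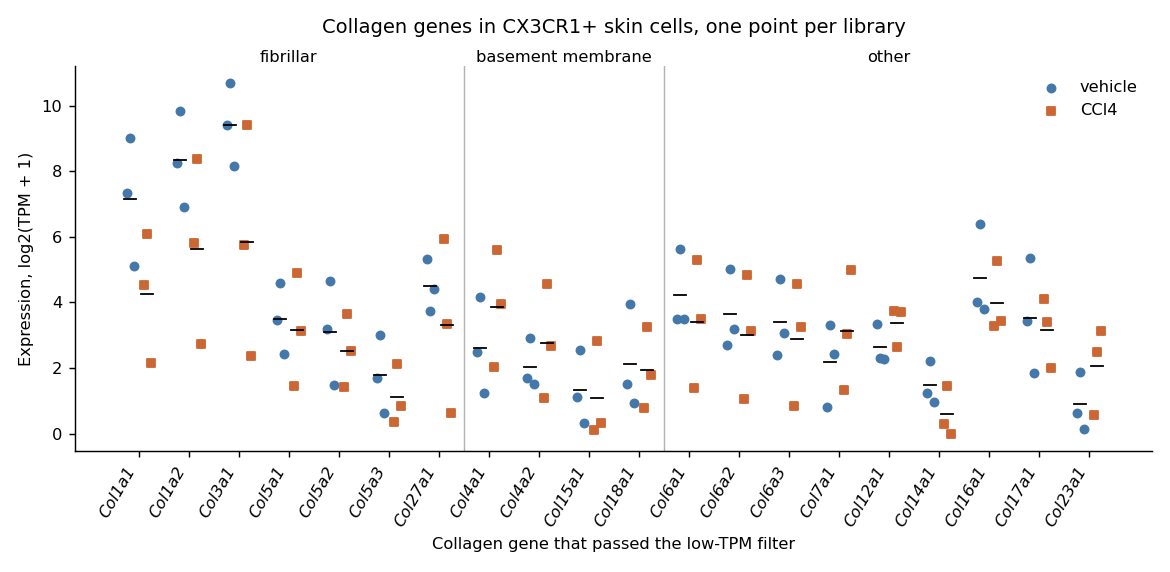
Expression of the 20 collagen genes tested in skin CX3CR1+ cells, as log2(TPM + 1), with genes on the horizontal axis grouped by class, 1 point per library (circles vehicle, squares CCl4) and a black bar at each group mean. The groups overlap in every gene, and Col3a1 spans 284 to 1643 TPM with vehicle and 4.15 to 675 TPM with CCl4.

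Among skin basement membrane collagens, Col4a1 was at 4.59, 16.9 and 1.35 TPM with vehicle and 3.07, 47.8 and 14.5 TPM with CCl4, a difference of 1.24 ± 1.06. Col4a2 was at 2.24, 6.51 and 1.87 TPM with vehicle and 1.12, 22.7 and 5.44 TPM with CCl4, a difference of 0.74 ± 0.92. Both were highest in library CCl4 2, where the 8 endothelial markers summed to 361 TPM against 14.0 to 44.4 TPM in the other 5. Egfl7 alone was at 268 TPM of that sum. Pericyte and smooth muscle markers also peaked there, at 86.8 TPM against 2.58 to 31.6 TPM. So did Schwann cell and melanocyte markers, at 106 TPM against 4.94 to 21.4 TPM. The part of these cells' RNA in the Col4a1 and Col4a2 values was not tested. Col18a1 was at 1.86, 14.5 and 0.92 TPM with vehicle and 0.71, 8.56 and 2.47 TPM with CCl4. Col15a1 was at 1.17, 4.82 and 0.26 TPM with vehicle and 0.08, 6.16 and 0.26 TPM with CCl4. Their groups overlapped, with differences of -0.19 ± 0.94 and -0.24 ± 0.84.

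Among the other collagens of skin, Col16a1, which sits at fibril surfaces and near basement membranes, was at 15.2, 83.3 and 12.8 TPM with vehicle and 8.67, 37.7 and 9.71 TPM with CCl4. Col6a1 was at 10.3, 48.8 and 10.4 TPM with vehicle and 1.64, 38.2 and 10.3 TPM with CCl4, and Col6a2 at 5.56, 31.3 and 8.08 TPM with vehicle and 1.09, 27.5 and 7.82 TPM with CCl4. Col17a1, the hemidesmosome collagen of basal keratinocytes, was at 9.72, 40.1 and 2.58 TPM with vehicle and 16.1, 9.64 and 3.05 TPM with CCl4. In each of these 4 genes the groups overlapped, with differences from -0.82 to -0.37. The remaining 5 tested were Col6a3 at -0.51, Col14a1 at -0.88, Col12a1 at 0.72, Col7a1 at 0.93 and Col23a1 at 1.18. Col7a1, singled out after its values were seen, was at 30.8 TPM in library CCl4 3, the leading collagen there with 21.7% of collagen TPM, and at 0.76 to 9.03 TPM in the other 5. Without that library its difference was -0.0042.

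Of the 24 members that missed the filter in skin, Col9a1 was listed at 0 throughout and 19 stayed below 1 TPM. The 5 that reached 1 TPM in some library were Col13a1 at up to 7.80 TPM, Col28a1 at up to 1.94, Col8a2 at up to 1.75, and Col4a5 and Col8a1 at up to 1.15. Col13a1 was the 1 member that passed the filter in liver and not in skin.

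Fibrillar collagens held 91.5 ± 2.77% (SD, n = 3) of collagen TPM in vehicle skin libraries. With CCl4 they held 79.0, 81.6 and 19.0%, so each CCl4 library was below the vehicle range of 88.9 to 94.4%, and library CCl4 3 was far below. The summed fibrillar level was 1604 ± 1381 TPM with vehicle and 449.5 ± 593 TPM with CCl4. In single libraries it was 1209, 3139 and 463 TPM with vehicle and 194, 1128 and 27.0 TPM with CCl4. The 10 skin fibroblast markers summed to 1123, 4325 and 1320 TPM with vehicle and 358, 3650 and 487 TPM with CCl4. Per 100 TPM of these markers, fibrillar collagen was at 108, 72.6 and 35.0 TPM with vehicle and 54.1, 30.9 and 5.55 TPM with CCl4. This ratio was chosen after its values were seen, and its groups overlapped. Dcn, also among the fibril partners, made up most of the marker sum in each library, at 298 to 3260 TPM. In CCl4 3 the markers diverged, with Twist2 at its highest skin value, 47.8 TPM, and Cd34 at its lowest, 3.82 TPM. The highest fibrillar sum in each group fell in the library with the most fibroblast marker RNA. In the remaining libraries the order was reversed. Vehicle 3 had more marker RNA than vehicle 1 and less fibrillar collagen, and so had CCl4 3 compared with CCl4 1.

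Other cell types were also present in the skin libraries. The 9 keratinocyte markers summed to 1393 to 3107 TPM with vehicle and 1125 to 3530 TPM with CCl4, and the 7 T cell markers to 705 to 4667 TPM and 773 to 2837 TPM. The 7 Langerhans and dendritic cell markers summed to 7529 to 11781 TPM with vehicle and 121 to 7018 TPM with CCl4. Library CCl4 3 was the lowest. Except in that library, the sums were mostly H2-Aa, at 2781 to 11490 TPM. In CCl4 3 H2-Aa was at 5.12 TPM, and Epcam, highest in this library, made up most of the sum at 113 TPM. None of these lists had a gene at 0 in all skin libraries, and none had a member called. The part of these cells in the collagen values was not tested. Of the pathway lists, 28 genes of collagen synthesis, 16 fibril partners, 13 other basement membrane components, 10 receptors and 23 TGF-beta and PDGF genes were tested in skin, and none was called.

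**Figure D5:**
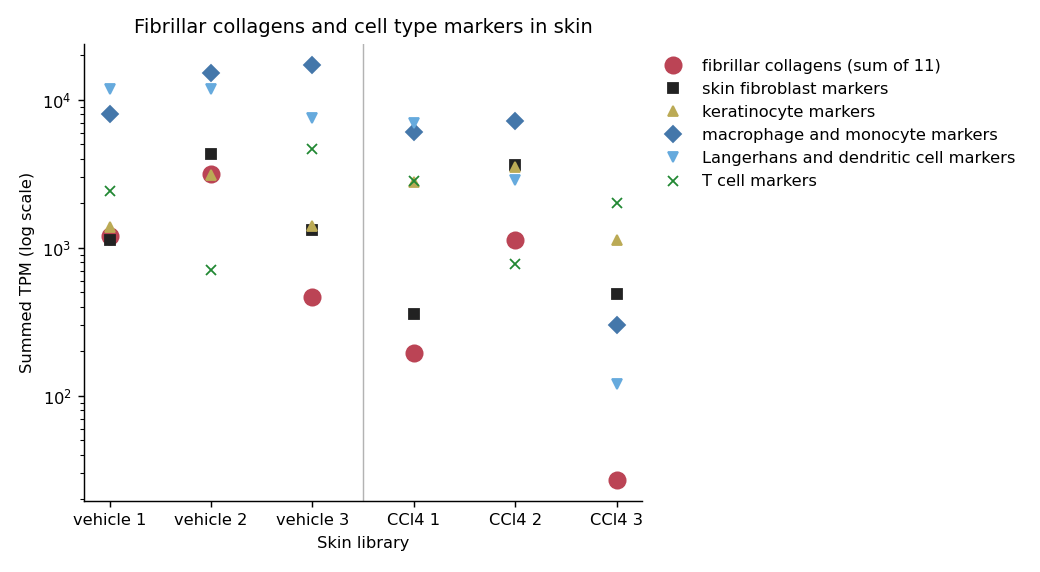
Summed TPM (vertical log axis) of the 11 fibrillar collagens and of 5 lists of cell type markers in each of the 6 skin libraries, vehicle left of the line and CCl4 right of it. Fibrillar collagen is highest at 3139 TPM in vehicle 2, where fibroblast markers reach 4325 TPM. It is lowest at 27.0 TPM in CCl4 3, where fibroblast markers are at 487 TPM and macrophage markers at 299 TPM.

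The difference between the 2 CCl4 effects was tested for the 13 members that passed the filter in both tissues, as the effect in skin minus the effect in liver. Only Col14a1 was called, at -3.64 ± 0.62 (adjusted p = 0.0376), where 0.0648% of 9255 genes were called higher and 0.151% lower. It rose by 2.76 in liver, and in skin it was at 1.37, 3.62 and 0.96 TPM with vehicle and 0.24, 1.75 and 0 TPM with CCl4. Its call was lost without skin library CCl4 3 (adjusted p = 0.0557) and without either of vehicle 1 and vehicle 2 of skin, any vehicle liver, or CCl4 liver 1 or 2 (0.0663 to 0.156). Col3a1 differed by -7.06 ± 1.78, Col1a2 by -5.07 ± 1.55 and Col1a1 by -4.70 ± 1.38 (adjusted p = 0.0855, 0.120 and 0.109). Col1a1 and Col3a1 were called after median-ratio scaling (adjusted p = 0.0457 and 0.0414), and both and Col1a2 without mitochondrial RNA (0.0272, 0.0176 and 0.0318). The other 9 members differed by between -2.52 and 1.90, with adjusted p of 0.247 or more.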

How the data were processed

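The authors deposited 1 table of TPM for 57180 genes in 12 libraries. Per the submitters' processing notes, fastp, HISAT2, StringTie, RSEM and GRCm39 were used, with no versions given in the sources used here. Per the labels' protocols, polyA RNA went into a stranded mRNA kit, and no separate smart-seq protocol is given. Gene IDs took symbols from the reference table (51884 matched). Members and gene lists were chosen with earlier results of these data known. Every member that passed the filter is named, with values in each library for up to 4 per class and tissue, for type I, III and IV chains fixed as of interest and for Col14a1, called between tissues, and up to 4 genes per pathway list by lowest p, of which 1 is not reported here.

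Analyses used R 4.3.3, limma 3.58.1 (lmFit, eBayes with trend, two-sided, 10385 liver, 13767 skin and 9255 shared genes) and Python 3.11.15, and the fit was tested on simulated data. Mitochondrial copies were found with blastn 2.17.0 at 95% identity over 50% of length. Class sums, shares and ratios had no test. Alternatives were other pseudocounts (0.1, 5), filters, scalings, a replicate block, robust variances, 1 fit over all libraries, type IV alone as basement membrane, and leaving libraries out.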

Additional observations from a re-analysis of the deposited data

Results flagged for a closer look

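Col14a1 had a CCl4 effect that differed between the tissues by the test of the difference itself, with a skin effect minus liver effect of -3.64 on the log2 scale (limma adjusted p = 0.0376, n = 3 libraries per group). In liver its CCl4 libraries all lay above its vehicle libraries, and in skin the groups overlapped, with 1 CCl4 library at 0 TPM. The direction held under every alternative in which it was tested, and the call was lost under 10 of them. Tissue, assay and strain differ together between the 2 sets of libraries, so their parts cannot be told apart.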

How the results depend on the processing

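The limits of these data are 3 libraries per group, TPM without counts, and skin libraries whose cell makeup differs widely. The liver rises were called under every scaling, and the skin comparison gave no collagen call under any setting run.

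Of all liver genes, called higher and lower numbers were 1841 and 2720 with median-ratio scaling, 1778 and 2574 with quantile normalization, 6922 and 435 without mitochondrial RNA, and 334 and 1402 in 1 fit over all libraries; 321 were higher at a filter of 5 TPM and 2007 with no filter. Liver collagens called higher numbered 2 in 1 fit over all libraries, 4 at the filter of 5 TPM (where 5 were tested) and 17 with no filter. Those called lower numbered 0 in 1 fit, and 1 at the filter of 5 TPM, with median-ratio scaling and without mitochondrial RNA. Without mitochondrial RNA Col5a3 was at 0.38 and Col27a1 at 0.46. Leaving out 1 library moved liver Col15a1 between -0.15 and 0.16. The cause of these moves was not tested, beyond the fewer genes or wider spread that a setting brings.

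In skin, 1 gene was called lower in 1 fit over all libraries. Without both replicates 1, Col5a1 was at 0.49, Col5a2 at 0.017, Col6a3 at 0.015, Col15a1 at 0.15 and Col18a1 at 0.081. Quantile normalization put Col18a1 at 0.044. Leaving out 1 library gave ranges of -0.16 to 1.59 for Col4a2, -1.21 to 0.52 for Col5a1, -1.40 to 0.19 for Col5a2, -1.76 to 0.18 for Col6a1, -1.54 to 0.35 for Col6a2, -1.35 to 0.51 for Col6a3, -0.0042 to 1.82 for Col7a1, -1.11 to 0.37 for Col15a1, -1.39 to 0.087 for Col16a1, -1.22 to 0.54 for Col17a1, -0.85 to 0.71 for Col18a1 and -2.52 to 0.14 for Col27a1.

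For the difference of effects, genes called higher and lower numbered 29 and 33 without both skin replicates 1, 3 and 8 at the filter of 5 TPM, 41 and 165 with median-ratio scaling, and 49 and 127 with a pseudocount of 0.1. With no filter 47 were higher, with a pseudocount of 5 7 were lower, with quantile normalization 67 were lower and without mitochondrial RNA 543 were lower. Collagens called lower numbered 0 without both replicates 1, at the filter of 5 TPM and with no filter, 3 with median-ratio scaling and a pseudocount of 0.1, and 4 without mitochondrial RNA. Leaving out 1 library gave 1 to 240 genes higher, 3 to 179 lower and 0 to 3 collagens lower, with Col5a3 between -0.30 and 0.88, Col15a1 between -1.11 and 0.36 and Col27a1 between -1.69 and 0.97. Col5a3 was at -1.07 without mitochondrial RNA, and Col15a1 at 0.14 without both replicates 1.

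With type IV alone as basement membrane, that class held 1.99% of vehicle liver, 19.0% of CCl4 liver and 0.692% of vehicle skin collagen TPM, and the other collagens 92.8% and 55.3% of the 2 liver groups. Summed liver collagen TPM was 143.9 with vehicle and 155.9 with CCl4 after median-ratio scaling, and 246 and 583 without mitochondrial RNA.

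No label gives the replicate numbers a shared batch or animal. Deviations of same-numbered CCl4 and vehicle libraries correlated at -0.038, 0.080 and 0.068 in liver and 0.587, 0.092 and 0.350 in skin, where both libraries numbered 1 also held the most genes above 0. Not every pair passed 0.1, and not every library correlated best with its own number, so the numbers were not used as a pairing. With the number as a replicate block, 10 liver collagens were higher and 3 lower (1146 and 5347 of all 10385 genes), none was called in skin, and 160 genes were higher and 185 lower in the difference of effects, with 4 collagens lower (Col1a1, Col1a2, Col3a1 and Col14a1).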
